A study of Mus musculus with 5 samples.

Results

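The genes described here are 152 with solute carrier symbols, read in mouse pancreatic cancer cells sorted by autophagy flux. They are the rows of the deposited table whose symbol begins with Slc and a number and whose mean over the 5 libraries was 2 FPKM or more. FPKM count the fragments of a transcript relative to its length and to library depth. Of 379 rows with such a symbol, 214 had a mean under 2 FPKM. A further 13 were set aside as carriers of the best-studied amino acid, glucose, lactate and iron routes (Slc7a5, Slc3a2, Slc7a11, Slc7a1, Slc1a5, Slc1a4, Slc38a2, Slc36a1, Slc2a1, Slc16a1, Slc16a3, Slc40a1 and Slc11a2), and Slc2a3, Slc38a1 and Slc38a9, which belong with them, were among those under 2 FPKM. The members were thus chosen by the mean FPKM over both groups, so their levels describe the set and are not a finding about it. In 6 of the 152 genes the mean of one group lay under 2 FPKM, in 5 of them that of AThi and in 1 that of ATlo.

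The AThi group held 2 libraries of autophagy-high cells and the ATlo group 3 libraries of autophagy-low cells. All cells of both groups were of HY15549, a pancreatic cancer line of C57BL/6 background, and carried the autophagy flux reporter GFP-LC3-RFP. Organoids grown in Matrigel, a gel of basement membrane proteins, in DMEM with 10% serum were dissociated and sorted on the GFP to RFP ratio. This is 1 tumour line, and both groups are fractions of reporter-bearing cells, without an unsorted or reporter-free sample. Separate cultures are named in none of the labels used here, although the series speaks of biological replicates, and the p-values therefore measure only the spread among 5 libraries, which may be technical.

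Solute carriers move small molecules across membranes without splitting ATP, by facilitated diffusion, exchange or coupling to an ion gradient. Families are numbered by sequence, and a family often shares a substrate class: SLC25 proteins shuttle metabolites across the inner mitochondrial membrane, SLC30 and SLC39 proteins move zinc out of and into the cytosol, SLC35 proteins carry nucleotide sugars into the Golgi and endoplasmic reticulum, and SLC12 proteins couple chloride to sodium and potassium. Lysosomes carry several of them, which return the amino acids, sugars, nucleosides and metals of degraded material to the cytosol. The 152 genes were placed by family in 9 substrate classes. Slc16a10 and Slc5a6 were instead placed by gene, the first with amino acids and the second with vitamins. The 5 genes that carry an Slc symbol but encode no transporter formed a class of their own.

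Promoters were read for all members that the table of promoters holds. Transcription factors that respond to nutrients and to lysosomal stress, such as the MYC and MiT/TFE factors, are known to bind the letters CACGTG. The RefSeq table of promoters for GRCm38.p6, which covers 250 bases before to 50 bases after a gene's start, held 114 of the 152 genes. It lists several starts for some genes, and a gene was counted where any of them held the letters. CACGTG, which reads the same on both strands and holds ACGTG, stood in the promoters of 7 of 25 members called higher (28%), 4 of 31 called lower (12.9%) and 10 of 58 not called (17.2%), against 8.09% of all 27025 genes with a promoter. The letters are a description of the sequence and not evidence of binding. The shares of all genes, here and below, cover genes of any level, whereas the members averaged 2 FPKM or more. No share for genes of matching level was counted. The promoters below are those of the 2 largest rises and the largest fall among the members past the threshold that hold it, with CACGTG in capitals, 5′ to 3′ on the strand of the gene. They lie at chr11:54028055-54028354 on the minus strand (Slc22a4), chr8:71570344-71570643 on the plus strand (Slc27a1) and chr17:45595197-45595496 on the minus strand (Slc29a1). The motif begins 228, 202 and 75 bases before these RefSeq starts of Slc22a4, Slc27a1 and Slc29a1, in that order. For Slc27a1 and Slc29a1 the start is an inner one of 3 and 8 listed, 1.71 kb and 4.36 kb inside the outermost start of the gene in GENCODE M21.
Slc22a4: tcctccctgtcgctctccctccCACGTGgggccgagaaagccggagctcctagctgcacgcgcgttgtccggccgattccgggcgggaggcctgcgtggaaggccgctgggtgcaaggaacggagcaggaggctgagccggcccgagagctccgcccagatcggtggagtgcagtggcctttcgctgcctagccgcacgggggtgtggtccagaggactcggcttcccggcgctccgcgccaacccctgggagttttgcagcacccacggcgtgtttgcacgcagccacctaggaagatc
Slc27a1: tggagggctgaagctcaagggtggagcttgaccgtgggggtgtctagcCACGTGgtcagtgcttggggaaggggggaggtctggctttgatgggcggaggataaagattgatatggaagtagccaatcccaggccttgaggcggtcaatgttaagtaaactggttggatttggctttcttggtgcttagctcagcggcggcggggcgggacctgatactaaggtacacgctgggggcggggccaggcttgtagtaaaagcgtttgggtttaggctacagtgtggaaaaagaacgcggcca
Slc29a1: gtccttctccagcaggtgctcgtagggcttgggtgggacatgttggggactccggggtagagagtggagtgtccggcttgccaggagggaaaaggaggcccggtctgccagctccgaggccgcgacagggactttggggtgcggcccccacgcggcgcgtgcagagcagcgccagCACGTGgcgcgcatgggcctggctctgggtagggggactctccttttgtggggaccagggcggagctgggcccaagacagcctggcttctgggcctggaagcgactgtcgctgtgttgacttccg
Of the other motifs searched on both strands, ACGTG was in 11 of 25, 9 of 31 and 18 of 58 promoters of members called higher, lower and not called (44%, 29.0% and 31.0%; 21.8% of all genes). The letters TGCGCNC or TGCACNC, the core of the metal response element, were in 9 of 25, 15 of 31 and 29 of 58 (36%, 48.4% and 50%; 28.2% of all genes). The longer TCACGTGA and TGATGCAA were in 3 and 2 of the 114 promoters (2.63% and 1.75%, against 1.12% and 1.03% of all genes).

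AThi was set against ATlo to ask which transcripts differ between cells of one line with high and low autophagy flux. Of the 152 genes, 35 were higher in AThi (23.0%), 41 were lower (27.0%) and 76 did not pass an adjusted p of 0.05 in limma. Over all 11397 tested genes, 51.6% passed, 22.2% higher and 29.4% lower, and 53.6% of the 10103 tested genes that averaged 2 FPKM or more passed, so the share of 50% among these genes was near the background and sets them apart in neither direction. Their median log2 fold change was -0.01, against -0.03 over all tested genes, and the median absolute change was 0.25 against 0.28. The AThi and ATlo ranges were apart in 105 of the 152 (69.1%), as they were in 70.3% of all tested genes and 71.6% of those at 2 FPKM or more. The 76 that did not pass ranged from -0.26 to 0.39, and in 29 of them the library values were apart all the same. A log2 fold change of FPKM + 0.5 of at least 1 in size, together with the threshold, was met by 5 rises and 2 falls. The rises were Slc22a4, Slc25a25, Slc44a4, Slc25a42 and Slc27a1, the falls Slc27a6 and Slc25a5, and 6.55% of all tested genes met this limit. Without the 0.5 added, AThi means of Slc23a3 and Slc7a3 were 0.43 and 0.48 times those of ATlo. Both passed the threshold but not this limit, at -0.96 and -0.90. The results below are therefore about single genes and about relatives that moved in opposite directions. How often relatives among all tested genes, of which 22.2% were higher and 29.4% lower, have opposite calls was not counted.

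**Figure D1:**
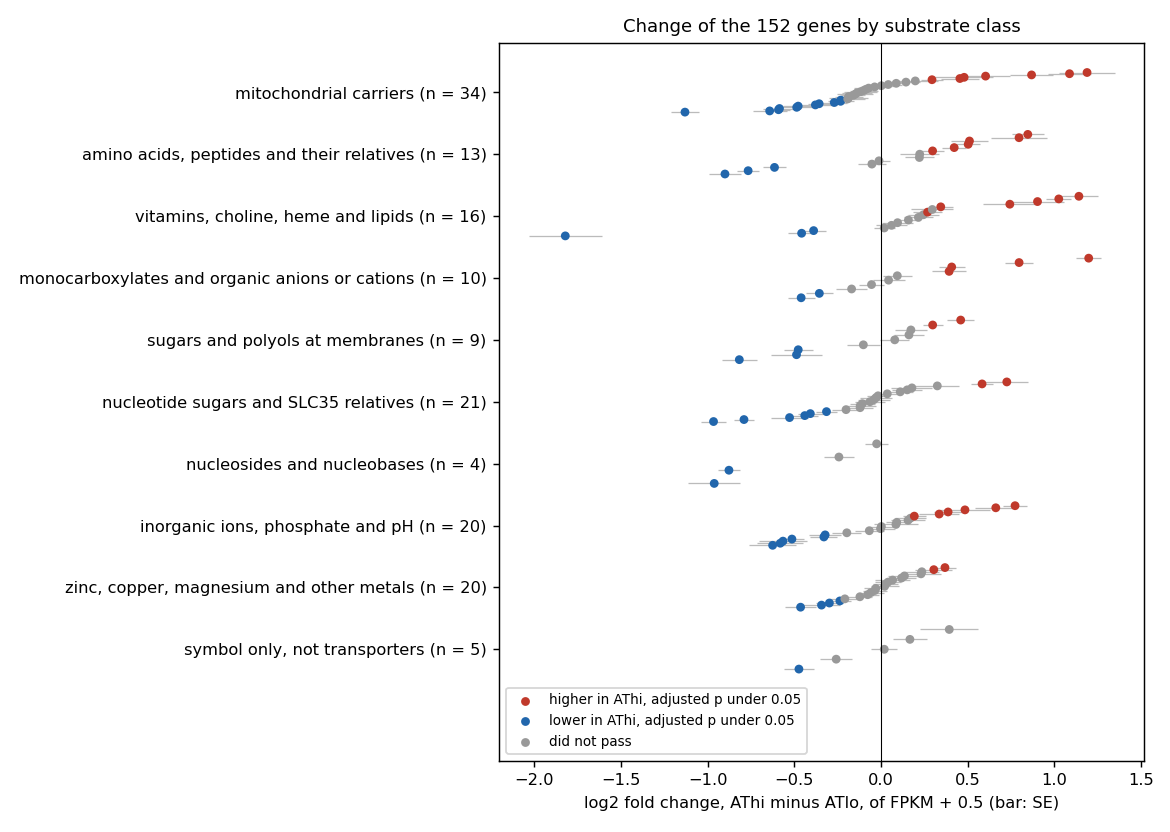
Log2 fold change of FPKM + 0.5, AThi minus ATlo (x axis), of each of the 152 genes in 10 classes (y axis), with bars for the SE and colours for genes higher, lower or not past an adjusted p of 0.05. Each class of transporters but that of nucleosides and nucleobases holds both rises and falls. The 4 genes of that class include Slc23a2 and Slc23a3, of the ascorbate carrier family. The range runs from -1.82 (Slc27a6) to 1.20 (Slc22a4).

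Several things moved with the groups beside these genes. All 10 immediate-early genes that respond to cell handling (Fos, Fosb, Jun, Junb, Egr1, Atf3, Btg2, Dusp1, Ier2 and Zfp36) were higher in AThi, with summed levels of 3508 and 5480.02 FPKM in AThi against 1102 to 1829.6 FPKM in ATlo, and all 7 cell division genes were lower, with sums of 29.2 FPKM in both AThi libraries against 262 to 358 FPKM in ATlo. Of these calls that of Jun was lost without AThi replicate 2 (adjusted p 0.129). Transcripts of the mitochondrial genome made up 10.0% and 7.51% of the FPKM total in AThi against 5.53% to 5.98% in ATlo. The part of these differences in the results below was not tested. The 7 epithelial and ductal markers summed to 3582 and 4246 FPKM in AThi against 3829.8 to 4509.7 FPKM in ATlo, mostly from keratins, with Sox9 higher, Krt7 lower and 5 not past the threshold, and Epcam at 1.51 to 3.57 FPKM. Of the fibroblast markers Col1a2, Dcn and Lum were listed at 0 in every library, and the 7 summed to 0.11 and 0.16 FPKM in AThi and to 0.11 to 0.17 in ATlo. The 4 endothelial markers summed to at most 0.08 FPKM in a library, with Kdr at 0. Among immune markers Ptprc reached at most 0.05 FPKM, Adgre1 was at 0, and Cd68, also a lysosomal gene, was at 8.68 and 14.7 FPKM in AThi against 4.31 to 4.55 in ATlo. Acinar Cpa1, Amy2a5 and Ptf1a were at 0 while Cela1 was at 10.2 to 12.9 FPKM, and endocrine Ins1, Ins2 and Gcg were at 0 while the haemoglobin gene Hba-a1 was at 6.88 and 6.33 FPKM in AThi against 0.89 to 6.48 in ATlo. In such bulk libraries fewer cells of a type and less RNA per cell cannot be told apart.

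The 152 means ran from 2.18 to 247 FPKM, with a median of 9.87, and 8 were 100 FPKM or more: Slc25a4, Slc12a2, Slc25a1, Slc26a2, Slc6a6, Slc39a4, Slc25a39 and Slc9a3r1. Summed over the set, the level was 3056 and 3000.45 FPKM in AThi against 3310.65 to 3453 FPKM in ATlo, or 1.05% and 1.04% of the library's total against 1.12% to 1.14%. At depths of 27.6 and 44.96 M reads in AThi and 36.0 to 42.1 M in ATlo, as implied by the low values, the lowest value, Slc23a3 in AThi replicate 1, corresponded to about 64 reads and the median value to about 1828, with exon lengths from GENCODE M21. The strand setting of the counting is not given in the sources used here, so reads of genes that overlap on opposite strands may have been shared. Examples are Slc4a2 with Fastk, Slc5a6 with Atraid, Slc25a11 with Rnf167 and Slc7a7 with Oxa1l, over 13.7%, 9.92%, 8.92% and 7.0% of their exon length. On the same strand, where no strand setting separates the reads, Slc39a7 overlaps Gm20427 over 80.7% and Slc10a3 overlaps Ubl4a over 12.8%. The 3 members nearest above the limit were Slc25a35, Slc23a3 and Slc30a1, with means of 2.18, 2.22 and 2.48 FPKM. Just below it were Slc17a4, Slc16a11 and Slc29a3, at 1.996, 1.97 and 1.93 FPKM.

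Mitochondrial carriers were the most numerous class. Of 34 SLC25 genes 7 rose and 11 fell, 52.9% called against 51.6% of all tested genes, and the median log2 fold change of all 34 was -0.13. Their summed level was 929.6 and 937 FPKM in AThi against 1161 to 1209.96 FPKM in ATlo, without overlap. Abundant carriers of ATP synthesis and citrate fell, and the most abundant gene that rose, Slc25a23, averaged 18.04 FPKM. Slc25a5, the adenine nucleotide translocase ANT2, which exchanges matrix ATP for ADP and is known from growing cells, had 31.9 and 36.2 FPKM in AThi against 70.7, 78.95 and 75.3 FPKM in ATlo. Both AThi libraries lay well below every ATlo library, and the log2 fold change was -1.13 ± 0.08 (SE, adjusted p 0.000103). Annotated processed pseudogenes match most of its transcript at over 95% identity, so reads may have been shared or dropped, and its level is uncertain. Slc25a4, the translocase ANT1 and the most abundant of the 152 genes, had 184 and 195 FPKM in AThi against 286, 288 and 282 FPKM in ATlo. Its groups did not overlap either, and it fell by 0.59 on the log2 scale (adjusted p 0.000607). Slc25a3, which imports the phosphate used with ADP, had 59.1 and 62.2 FPKM in AThi against 75.1, 77.1 and 81.1 FPKM in ATlo and changed by -0.36 ± 0.07 (SE).

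Carriers of the citrate and malate routes followed. Slc25a1, which exports citrate to the cytosol for lipid synthesis, had 120.44 and 139.85 FPKM in AThi against 198, 174 and 175 FPKM in ATlo. All AThi values were below those of ATlo, with a log2 fold change of -0.49 ± 0.10 (SE). Slc25a11, the oxoglutarate carrier of the malate-aspartate shuttle, changed by -0.23 ± 0.06 (SE), and the glutamate carrier Slc25a22 by -0.48 ± 0.09 (SE). The aspartate-glutamate carriers Slc25a12 and Slc25a13 and the dicarboxylate carrier Slc25a10 did not pass, with log2 fold changes of -0.16, -0.10 and 0.20. For iron and heme, Slc25a37 (mitoferrin 1, which brings iron into the matrix) had 9.48 and 9.30 FPKM in AThi against 13.3, 14.9 and 16.8 FPKM in ATlo. The groups were apart and it changed by -0.64 ± 0.10 (SE), whereas mitoferrin 2, Slc25a28, was at -0.09 and did not pass. Slc25a38, a glycine carrier for heme synthesis, and Slc25a39, the glutathione carrier, changed by -0.38 ± 0.12 (SE) and -0.23 ± 0.08 (SE). Both of these calls were lost when the values were rescaled by the median of ratios (adjusted p 0.056 and 0.061), and that of Slc25a38 also as TPM (adjusted p 0.0647).

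Relatives within the SLC25 family moved in opposite directions. The calcium-regulated carriers that exchange ATP-magnesium for phosphate are encoded by Slc25a23, Slc25a24 and Slc25a25. Slc25a25 had 4.19 and 6.09 FPKM in AThi against 1.85, 2.20 and 1.78 FPKM in ATlo. The AThi mean was 2.64 times the ATlo mean, and the largest rise of the family, at 1.19 ± 0.16 (SE, adjusted p 0.00109). Slc25a23 had 26.98 and 22.9 FPKM in AThi against 15.7, 12.4 and 12.3 FPKM in ATlo, again without overlap, and rose by 0.87 ± 0.12 (SE). Slc25a24, the most abundant of the 3, had 52.7 and 44.3 FPKM in AThi against 70.4, 69.9 and 78.2 FPKM in ATlo and changed by -0.59 ± 0.09 (SE). Pyrimidine nucleotides are carried by Slc25a33 and Slc25a36: the first changed by -0.27 ± 0.07 (SE) and the second by 0.46 ± 0.11 (SE). Slc25a42, which brings coenzyme A into the matrix, had 5.50 and 6.35 FPKM in AThi against 2.98, 2.31 and 2.30 FPKM in ATlo. Both AThi values exceeded the highest ATlo value, with a log2 fold change of 1.09 ± 0.13 (SE, adjusted p 0.0006), while its relative Slc25a16 did not pass, at 0.14. Slc25a51, the importer of NAD+, had 16.1 and 15.1 FPKM in AThi against 12.5, 12.9 and 12.4 FPKM in ATlo and rose by 0.30 ± 0.06 (SE). The remaining rises were in Slc25a27, known as uncoupling protein 4, at 0.48 ± 0.17 (SE), and in Slc25a45, at 0.60 ± 0.14 (SE).

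Not past the threshold were the carriers of carnitine esters (Slc25a20, at 0.04), S-adenosylmethionine (Slc25a26, at -0.04), folate (Slc25a32, at 0.09), ornithine (Slc25a15, at -0.19) and the peroxisomal carrier Slc25a17 (at -0.07), and the 16 genes of this kind ranged from -0.19 to 0.20. Of the 18 calls in the family, 4 of 7 rises and 7 of 11 falls held with each library left out in turn. Those lost were Slc25a11 without AThi replicate 1 or ATlo replicate 2 (adjusted p 0.0562 to 0.0593), Slc25a33 without AThi replicate 1, AThi replicate 2 or ATlo replicate 2 (adjusted p 0.0653 to 0.0792), Slc25a36 without AThi replicate 1 or AThi replicate 2 (adjusted p 0.0608 to 0.0642), Slc25a38 without AThi replicate 1, AThi replicate 2, ATlo replicate 2 or ATlo replicate 3 (adjusted p 0.0621 to 0.201), Slc25a39 without AThi replicate 1, AThi replicate 2, ATlo replicate 1 or ATlo replicate 2 (adjusted p 0.0579 to 0.126), Slc25a27 without AThi replicate 2, ATlo replicate 1 or ATlo replicate 2 (adjusted p 0.0857 to 0.28) and Slc25a45 without AThi replicate 2 (adjusted p 0.0833). Slc8b1, an exchanger of sodium for calcium in the same membrane but of another family, had 10.5 and 10 FPKM in AThi against 8.42, 7.45 and 7.27 FPKM in ATlo and rose by 0.39 ± 0.08 (SE). The related genes Mpc1 and Mpc2, the mitochondrial pyruvate carrier, did not pass, at 0.01 and 0.03 on the log2 scale.

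**Figure D2:**
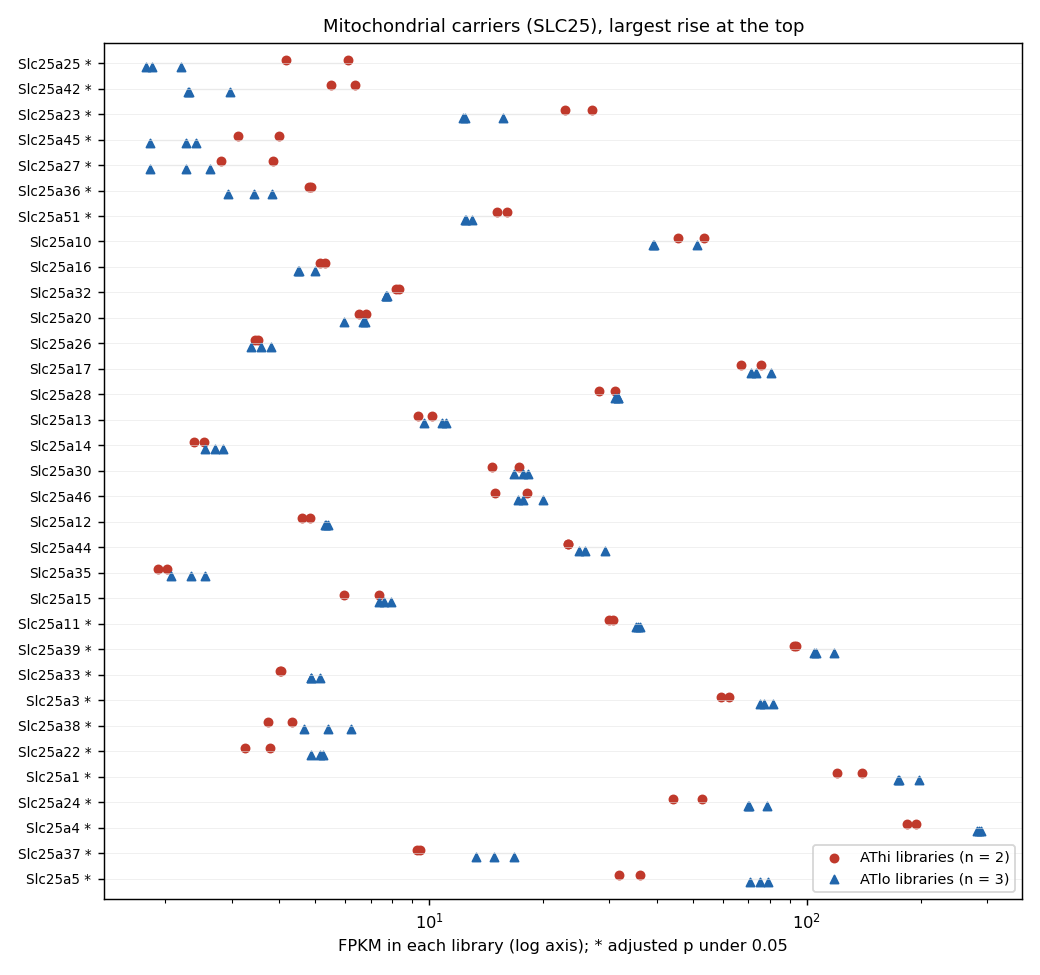
FPKM of mitochondrial carriers (log x axis) in the 2 AThi libraries (circles) and 3 ATlo libraries (triangles), ordered by log2 fold change with the largest rise at the top; an asterisk marks an adjusted p under 0.05. Slc25a25 and Slc25a23 lie to the right in AThi and their relative Slc25a24 to the left, and the translocases Slc25a4 and Slc25a5 are lower in AThi.

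Amino acid carriers outside the best-known set came next. Of 13 genes 6 rose and 3 fell, the other 4 did not pass, and the median was 0.22. The share called was 69.2%, against 51.6% of all tested genes (22.2% higher and 29.4% lower). Of the amino acid routes set aside, Slc7a5, Slc3a2, Slc7a11, Slc7a1, Slc1a5, Slc1a4 and Slc38a2 were lower and Slc36a1 did not pass. The surplus of rises over falls therefore holds only without them. Among the falls were importers at the plasma membrane. Slc7a6, the y+LAT2 subunit that pairs with Slc3a2 to exchange arginine for glutamine, had 26.9 and 26.4 FPKM in AThi against 43.5, 47.3 and 46.4 FPKM in ATlo. Both AThi values lay below the ATlo range and close together, and the log2 fold change was -0.77 ± 0.06 (SE). Slc7a3, a cationic amino acid transporter, had 2.03 and 1.73 FPKM in AThi against 3.89, 4.06 and 3.85 FPKM in ATlo and changed by -0.90 ± 0.09 (SE). Slc6a9, the glycine transporter GlyT1, had 11.3 and 11.97 FPKM in AThi against 18.99, 17.4 and 17.9 FPKM in ATlo. The groups did not overlap, at -0.61 ± 0.07 (SE) on the log2 scale, and its exons overlap those of Ccdc24 on the other strand.

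Rises were found in transporters of osmolytes and of neutral and aromatic amino acids. Slc6a8, which imports creatine, had 6.74 and 8.01 FPKM in AThi against 3.65, 3.99 and 3.95 FPKM in ATlo. The AThi mean was 1.91 times that of ATlo, without overlap, with a log2 fold change of 0.85 ± 0.09 (SE). Slc6a6, the taurine importer and the most abundant gene of the class, had 147 and 150.05 FPKM in AThi against 117, 108 and 107 FPKM in ATlo and rose by 0.42 ± 0.07 (SE). Slc43a2, the uniporter LAT4 of large neutral amino acids, had 5.27 and 3.74 FPKM in AThi against 2.75, 2.27 and 2.06 FPKM in ATlo. Its AThi libraries differed from each other more than its ATlo libraries did, and it rose by 0.80 ± 0.16 (SE). Slc7a7, the y+LAT1 subunit and closest relative of Slc7a6, had 11.1 and 11.6 FPKM in AThi against 8.21, 7.93 and 7.41 FPKM in ATlo, or 0.50 ± 0.07 (SE), opposite in sign to Slc7a6. Slc16a10, the transporter TAT1 of aromatic amino acids, had 7.65 and 6.43 FPKM in AThi against 5, 4.25 and 5.11 FPKM in ATlo and rose by 0.51 ± 0.11 (SE). Slc38a7, which moves glutamine out of lysosomes, rose by 0.30 ± 0.07 (SE). Slc15a4, a lysosomal carrier of histidine and peptides, was at 0.22 with an adjusted p of 0.059. The calls lost on leaving out a library were Slc16a10 without AThi replicate 1 (adjusted p 0.0546) and Slc38a7 without AThi replicate 1 (adjusted p 0.052). Of all 13 carriers set aside, which include Slc3a2, the partner of Slc7a6 and Slc7a7, 9 were lower and 1 higher, at a median of -0.52. This is 76.9% called against 51.6% of all tested genes, and these 13 also include glucose, lactate and iron carriers. The call of Slc38a2 was lost without AThi replicate 1, ATlo replicate 2 or ATlo replicate 3 (adjusted p 0.061 to 0.129). Slc3a2 had 44.9 and 46.04 FPKM in AThi against 63.3, 66.4 and 66.4 FPKM in ATlo, and fell by 0.52 on the log2 scale.

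Carriers of vitamins, choline, heme and lipids held the largest fall of all 152 genes. Of 16 genes 6 rose and 3 fell, with 7 not past the threshold and a median of 0.23. The share called was 56.25%, against 51.6% of all tested genes. Slc27a6, a fatty acid transport protein known in humans from the heart, had 1.74 and 0.940 FPKM in AThi against 5.56, 5.02 and 7.15 FPKM in ATlo. The highest AThi value was far under the lowest ATlo value, the AThi libraries also differed from each other, and the log2 fold change was -1.82 ± 0.21 (SE, adjusted p 0.000622). Of its relatives 2 rose and 1 did not pass. Slc27a1, the transport protein and acyl-CoA synthetase FATP1, had 12.9 and 14.1 FPKM in AThi against 6.46, 6.09 and 6.53 FPKM in ATlo. The AThi mean was 2.12 times the ATlo mean, at 1.03 ± 0.07 (SE, adjusted p 9.63e-05). Slc27a3 rose by 0.74 ± 0.15 (SE), a call lost without AThi replicate 2, and Slc27a4, at 11.2 to 13.4 FPKM in all libraries, was at 0.16 and did not pass.

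In the choline transporter-like family 2 genes rose and the other two did not pass. Slc44a4, which in humans carries thiamine pyrophosphate in the colon, had 20.3 and 25.6 FPKM in AThi against 9.40, 11.03 and 9.81 FPKM in ATlo. The AThi mean was 2.28 times the ATlo mean, without overlap, at 1.14 ± 0.11 (SE, adjusted p 0.000334). Slc44a3 had 16.4 and 14.8 FPKM in AThi against 10.2, 7.42 and 6.96 FPKM in ATlo and rose by 0.90 ± 0.15 (SE). Slc44a1, the choline transporter CTL1 and the most abundant of the class, had 43.4 and 40.5 FPKM in AThi against 41.1, 40.6 and 42.2 FPKM in ATlo. These values overlapped, with a log2 fold change of 0.02 ± 0.06 (SE). Slc44a2 was at 0.25 with an adjusted p of 0.0588. Among vitamin carriers, Slc19a1, the reduced folate carrier, had 4.88 and 4.51 FPKM in AThi against 6.49, 6.13 and 6.27 FPKM in ATlo and changed by -0.39 ± 0.07 (SE). Slc52a2, a riboflavin transporter, had 8.02 and 8.46 FPKM in AThi against 12.4, 10.8 and 11.4 FPKM in ATlo and changed by -0.46 ± 0.08 (SE), while its relative Slc52a3 was at 0.10 and did not pass. Slc5a6, the sodium-dependent carrier of biotin and pantothenate, rose by 0.27 ± 0.08 (SE), and a processed pseudogene matches part of its transcript. Slc48a1, which takes heme out of lysosomes, had 16.01 and 16.1 FPKM in AThi against 13.3, 11.9 and 12.5 FPKM in ATlo and rose by 0.35 ± 0.07 (SE). The proton-coupled folate carrier Slc46a1, the thiamine carrier Slc19a2 and the acetyl-CoA carrier Slc33a1 did not pass, at 0.30, 0.22 and 0.06. The lost calls were Slc5a6 without AThi replicate 1, AThi replicate 2, ATlo replicate 1 or ATlo replicate 2 (adjusted p 0.0601 to 0.133) and Slc27a3 without AThi replicate 2 (adjusted p 0.0568).

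On the scale of FPKM + 0.5, organic ion carriers held the largest rise among the 152 genes of 2 FPKM or more, that of Slc22a4. The mitochondrial Slc25a25 was close, at 1.19, and its ratio of group means, 2.64, was above the 2.38 of Slc22a4. Slc17a4, just under the limit of 2 FPKM, was at 1.29. Of the 10 organic ion genes 4 rose and 2 fell, with 4 not past the threshold and a median of 0.07. The share called was 60%, against 51.6% of all tested genes. Slc22a4, the transporter OCTN1 of the antioxidant ergothioneine, had 18.9 and 21.5 FPKM in AThi against 8.44, 8.54 and 8.52 FPKM in ATlo. The ATlo libraries were almost equal, the AThi mean was 2.38 times theirs, and the log2 fold change was 1.20 ± 0.07 (SE, adjusted p 6.02e-05). Its neighbour on the same strand of chromosome 11, Slc22a5, the carnitine transporter OCTN2, had 8.19 and 8.33 FPKM in AThi against 5.77, 5.99 and 6.56 FPKM in ATlo and rose by 0.41 ± 0.08 (SE). Slc22a5 spans 53864542 to 53891660 and Slc22a4 53983123 to 54028090 of GRCm38, 91.5 kb apart. Slc22a21, whose transcript matches part of Slc22a5 at over 95% identity, was under the limit, at a mean of 1.44 FPKM, and did not pass. Slc17a9, which loads ATP into vesicles and lysosomes, had 7.17 and 7.89 FPKM in AThi against 3.92, 4.18 and 4.25 FPKM in ATlo. The groups were apart, at 0.80 ± 0.08 (SE). Slc17a5, the lysosomal exporter of sialic acid, rose by 0.39 ± 0.10 (SE). Its call was lost without AThi replicate 1 (log2 fold change 0.32, adjusted p 0.0919). Slc18b1, a vesicular polyamine transporter, and Slc10a3, of the bile acid carrier family, fell by 0.36 and 0.46 on the log2 scale. Slc22a18, the most abundant of the class, had 39.2 and 41.5 FPKM in AThi against 43.3, 39.1 and 35.2 FPKM in ATlo. Its groups overlapped, at 0.04 ± 0.09 (SE, adjusted p 0.711).

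Sugar carriers other than the main glucose transporters gave 2 rises, 3 falls and 4 genes that did not pass among 9, with a median of 0.08. The share called was 55.6%, against 51.6% of all tested genes. Slc2a6, the lysosomal glucose transporter family member GLUT6, had 1.48 and 1.77 FPKM in AThi against 3.18, 3.38 and 3.15 FPKM in ATlo. Both AThi values were below every ATlo value, and it changed by -0.82 ± 0.10 (SE). Slc5a3, the sodium-dependent importer of myo-inositol, had 5.38 and 4.93 FPKM in AThi against 7.52, 6.80 and 7.81 FPKM in ATlo, without overlap, at -0.48 ± 0.08 (SE). Slc45a3, a relative of the plant sucrose carriers, had 16.6 and 23.1 FPKM in AThi against 30.5, 27.7 and 24.96 FPKM in ATlo and changed by -0.49 ± 0.15 (SE). Its call was lost without AThi replicate 1, ATlo replicate 1 or ATlo replicate 2 (adjusted p 0.0601 to 0.151, with a log2 fold change between -0.48 and -0.25). The rises were in sugar-phosphate carriers. Slc37a4, which brings glucose 6-phosphate into the endoplasmic reticulum, had 15.7 and 15.7 FPKM in AThi against 12.97, 12.5 and 12.6 FPKM in ATlo. Its AThi libraries lay above those of ATlo, at 0.30 ± 0.06 (SE), and Slc37a1 had 36.04 and 40.6 FPKM in AThi against 29.4, 27 and 26.7 FPKM in ATlo, at 0.46 ± 0.08 (SE). The third relative, Slc37a3, was at 0.08 and did not pass. Slc50a1, the most abundant of the class, had 42.4 and 51.5 FPKM in AThi against 53.3, 49.1 and 48.2 FPKM in ATlo. These overlapped, with an adjusted p of 0.406. The glucose transporter GLUT8, Slc2a8, was at 0.16 with an adjusted p of 0.153.

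In the SLC35 family of nucleotide sugar carriers 2 of 21 genes rose and 6 fell, 13 did not pass, and the median was -0.06. The share called was 38.1%, against 51.6% of all tested genes. Slc35b1, known in human cells as the importer of ATP into the endoplasmic reticulum, had 18.1 and 18.6 FPKM in AThi against 31.9, 32.9 and 31.6 FPKM in ATlo. Both groups were tight and apart, at -0.79 ± 0.06 (SE). Slc35d1, which carries UDP-glucuronic acid into the endoplasmic reticulum, had 12.7 and 9.95 FPKM in AThi against 17.04, 15.6 and 16.7 FPKM in ATlo and changed by -0.53 ± 0.11 (SE). Slc35c1, the GDP-fucose carrier of the Golgi, had 15.7 and 15.1 FPKM in AThi against 22.6, 19.9 and 20.7 FPKM in ATlo and changed by -0.44 ± 0.07 (SE). The member with the largest fall, Slc35e4, had 11.9 and 13.1 FPKM in AThi against 24.4, 26.2 and 24.1 FPKM in ATlo, at -0.97 ± 0.07 (SE), and Slc35a4, the most abundant, had 32.8 and 30.6 FPKM in AThi against 44.8, 42.2 and 39.6 FPKM in ATlo, at -0.41 ± 0.07 (SE). Slc35e1 fell by 0.31. The substrates of these 3 are not named here. The rises were in Slc35f5, with 39.4 and 37.6 FPKM in AThi against 26.5, 24.9 and 25.03 FPKM in ATlo, and Slc35e3, with 6.20 and 4.86 FPKM in AThi against 3.46, 2.83 and 3.10 FPKM in ATlo. Neither overlapped, at 0.58 ± 0.06 (SE) and 0.73 ± 0.12 (SE). The carriers of CMP-sialic acid (Slc35a1), UDP-galactose (Slc35a2), UDP-N-acetylglucosamine (Slc35a3) and the sulfate donor PAPS (Slc35b2 and Slc35b3) did not pass, at -0.02, -0.12, 0.18, 0.04 and 0.15. All 8 calls of the family held with each library left out in turn. Slc35a4 and Slc35e3 have processed pseudogenes that match part of their transcripts.

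The class of nucleosides and nucleobases held 4 genes by family, of which 2 fell and 2 did not pass, 50% called against 51.6% of all tested genes. It includes Slc23a2 and Slc23a3, of the ascorbate carrier family. Slc29a1, the equilibrative nucleoside transporter ENT1, which lets cells take up nucleosides for salvage, had 38.5 and 36.98 FPKM in AThi against 72.1, 67.2 and 69.96 FPKM in ATlo. Both groups were tight and far apart, and the log2 fold change was -0.88 ± 0.06 (SE, adjusted p 0.000102). Its relative Slc29a2 had 3.90 and 3.74 FPKM in AThi against 4.45, 4.38 and 5.02 FPKM in ATlo, lower in both AThi libraries, at -0.24 ± 0.09 (SE), and its adjusted p of 0.0517 missed the threshold. Slc23a3, a relative of the ascorbate carriers, had 1.07 and 1.39 FPKM in AThi against 2.36, 3.09 and 3.18 FPKM in ATlo and changed by -0.96 ± 0.15 (SE). The ascorbate importer Slc23a2 was at 14.2 to 15.3 FPKM in all libraries and did not pass.

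**Figure D3:**
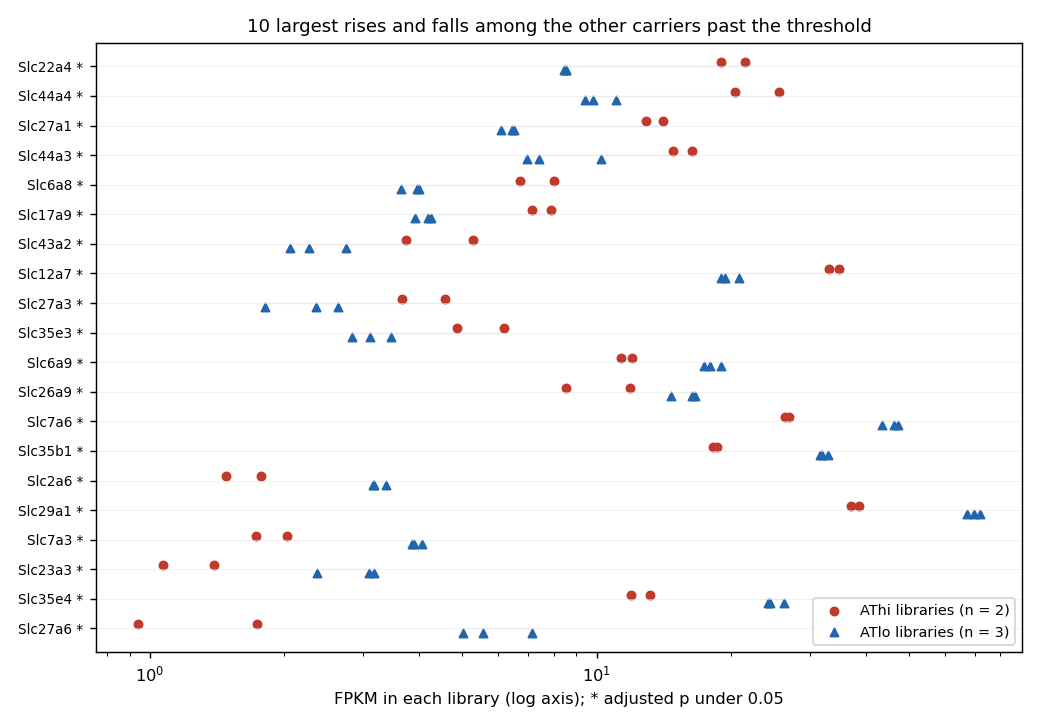
FPKM (log x axis) of the 10 largest rises and 10 largest falls past the threshold among the genes outside the SLC25 family, those with an Slc symbol only left out, in the 2 AThi libraries (circles) and 3 ATlo libraries (triangles). Both groups are apart in each, but these genes were picked as the largest changes, and 70.3% of all tested genes are apart. Slc27a6, at the bottom, shows the largest fall (-1.82).

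Carriers of inorganic ions split evenly, with 6 rises, 6 falls and 8 genes that did not pass among 20, and a median of 0.04. The share called was 60%, against 51.6% of all tested genes. The cation-chloride family was divided. Slc12a2, the cotransporter NKCC1 that brings sodium, potassium and chloride into cells, had 152 and 109 FPKM in AThi against 189, 182 and 201 FPKM in ATlo. The AThi libraries lay below those of ATlo but differed more from each other than the ATlo libraries did, and it changed by -0.57 ± 0.14 (SE, adjusted p 0.0135, and 0.0608 with no filter on low values). Of the potassium-chloride cotransporters that move chloride out, Slc12a7 (KCC4) had 33.1 and 34.9 FPKM in AThi against 20.8, 19.4 and 18.9 FPKM in ATlo. It rose by 0.77 ± 0.07 (SE), while Slc12a4 (KCC1) changed by -0.33 ± 0.08 (SE). The kinase genes that control this family, Wnk1, Wnk4, Oxsr1 and Stk39, did not pass, at 0.08, 0.14, -0.17 and -0.37.

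Anion exchangers and bicarbonate carriers differed in direction. Slc26a9, a chloride transporter of epithelia, had 11.9 and 8.54 FPKM in AThi against 16.6, 16.3 and 14.6 FPKM in ATlo and changed by -0.62 ± 0.13 (SE). Slc26a11 had 3.99 and 5.30 FPKM in AThi against 2.76, 2.61 and 2.80 FPKM in ATlo and rose by 0.66 ± 0.12 (SE). The sulfate carrier Slc26a2 was abundant, with 154 and 148 FPKM in AThi against 135, 135 and 126 FPKM in ATlo, and changed by 0.19 ± 0.07 (SE). Slc4a4, the sodium-bicarbonate cotransporter NBCe1 of pancreatic ducts, had 13.2 and 15.96 FPKM in AThi against 8.60, 10.3 and 11.99 FPKM in ATlo. The highest ATlo value came close to the lowest AThi value, and it rose by 0.49 ± 0.14 (SE). Slc4a2 and Slc4a7, of the same family, were at 0.09 and 0.17 and did not pass. Of the sodium-proton exchangers, Slc9a5 had 5.65 and 6.51 FPKM in AThi against 7.73, 10 and 10.5 FPKM in ATlo and changed by -0.58 ± 0.13 (SE), whereas Slc9a2, Slc9a4 and Slc9a8 did not pass, at 0.09, -0.20 and -0.07. The sodium-phosphate importers Slc20a2 and Slc20a1 changed by -0.51 ± 0.07 (SE) and -0.32 ± 0.09 (SE). With a library left out, the calls lost included Slc12a4 without AThi replicate 1 (adjusted p 0.0734), Slc20a1 without AThi replicate 1, ATlo replicate 2 or ATlo replicate 3 (adjusted p 0.0631 to 0.127), Slc26a2 without any 1 library (adjusted p 0.0575 to 0.166), Slc4a4 without AThi replicate 2 or ATlo replicate 2 (adjusted p 0.0545 to 0.166) and Slc9a5 without AThi replicate 1 (adjusted p 0.0729). Without AThi replicate 1 the class had 7 calls in place of 12.

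Among partner and control proteins of ion carriers 6 of 15 tested genes rose, 2 fell and 7 did not pass. The share called, 53.3%, was near the 51.6% of all tested genes. Of the beta subunits of the sodium pump, Atp1b1 had a log2 fold change of 0.66 and Atp1b3 one of -0.65. Bsg, the chaperone of the lactate carriers, had 806 and 960.44 FPKM in AThi against 352, 381 and 387 FPKM in ATlo. It rose by 1.24 ± 0.10 (SE). The carbonic anhydrase genes Car2 and Car9 rose by 0.56 and 0.70, and the call of Car2 was lost without AThi replicate 2 (adjusted p 0.1). Slc9a3r1, a scaffold that ties transporters to ezrin and no carrier itself, had 86.98 and 78.98 FPKM in AThi against 126, 112 and 108 FPKM in ATlo. It changed by -0.47 ± 0.09 (SE), and Ezr itself fell by 0.42 on the log2 scale. The other 4 genes with an Slc symbol and no transport function did not pass, at -0.26 (Slc7a6os), 0.02 (Slc4a1ap), 0.17 (Slc9a3r2) and 0.39 (Slc2a4rg-ps), though 3 of the 5 passed without ATlo replicate 1 and 2 without ATlo replicate 3.

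Metal carriers had the smallest share of calls among the 9 substrate classes. Of 20 genes 2 rose, 4 fell and 14 did not pass, 30% called against 51.6% of all tested genes, and the median absolute log2 fold change was 0.13. No test of the class was made, and 3 calls were left without AThi replicate 2 or without ATlo replicate 2. Slc39a4, the zinc importer ZIP4, known from human pancreatic cancer to be raised in tumours, was the most abundant, with 102 and 109 FPKM in AThi against 122, 127 and 123 FPKM in ATlo. The AThi values were lower without overlap, but the difference was small, at -0.24 ± 0.07 (SE). Slc39a7, which releases zinc from the endoplasmic reticulum, had 5.44 and 5.14 FPKM in AThi against 6.88, 8.31 and 7.32 FPKM in ATlo. It changed by -0.46 ± 0.09 (SE), but Gm20427 overlaps 80.7% of its exon length on the same strand, so its level is uncertain. Slc39a14, an importer of zinc and iron, had 3.91 and 3.96 FPKM in AThi against 4.73, 5.21 and 4.92 FPKM in ATlo and changed by -0.30 ± 0.08 (SE). Slc30a4, which loads zinc into vesicles, had 10.6 and 8.85 FPKM in AThi against 12, 11.6 and 13.8 FPKM in ATlo and changed by -0.34 ± 0.11 (SE). Slc30a1, the zinc exporter of the plasma membrane, had 2.84 and 2.70 FPKM in AThi against 2.28, 2.02 and 2.58 FPKM in ATlo. It was a little higher in AThi and did not pass (adjusted p 0.128).

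The 2 rises among metal carriers were small. Slc41a1, a magnesium transporter, had 16 and 15.1 FPKM in AThi against 12.1, 12.3 and 11.4 FPKM in ATlo and rose by 0.37 ± 0.07 (SE). Slc31a2, a relative of the copper importer, had 6.51 and 6.44 FPKM in AThi against 5.83, 5.18 and 4.50 FPKM in ATlo and changed by 0.31 ± 0.11 (SE), while the importer Slc31a1 itself had 20.99 and 18.9 FPKM in AThi against 20.4, 20.4 and 20.2 FPKM in ATlo. Slc31a1 overlapped and was at -0.03 ± 0.07 (SE). Only 2 of the 6 calls, Slc39a7 and Slc41a1, held with each library left out in turn. The others were lost as Slc39a4 without AThi replicate 1 or ATlo replicate 2 (adjusted p 0.0931 to 0.1), Slc39a14 without AThi replicate 1, AThi replicate 2 or ATlo replicate 2 (adjusted p 0.0607 to 0.0685), Slc30a4 without AThi replicate 2, ATlo replicate 1 or ATlo replicate 3 (adjusted p 0.0528 to 0.195) and Slc31a2 without AThi replicate 1, AThi replicate 2, ATlo replicate 2 or ATlo replicate 3 (adjusted p 0.0938 to 0.157). The remaining zinc carriers ranged from -0.21 (Slc30a5) to 0.14 (Slc39a9) on the log2 scale. Of 11 tested partners in metal handling 5 rose, 2 fell and 4 did not pass, 63.6% called against 51.6% of all tested genes. All of these calls but that of Cnnm3 held with each library left out (Cnnm3 0.23, adjusted p up to 0.143 without AThi replicate 2). The copper pumps Atp7a and Atp7b rose by 0.68 and 0.40, the copper chaperone Atox1 fell by 0.50, and the magnesium regulators Cnnm2 and Cnnm4 changed by 1.06 and -0.52. The metallothionein gene Mt1 had 154 and 187 FPKM in AThi against 117, 113 and 103 FPKM in ATlo, and rose by 0.61 ± 0.10 (SE), while Mt2 was at 0.22 and did not pass.

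**Figure D4:**
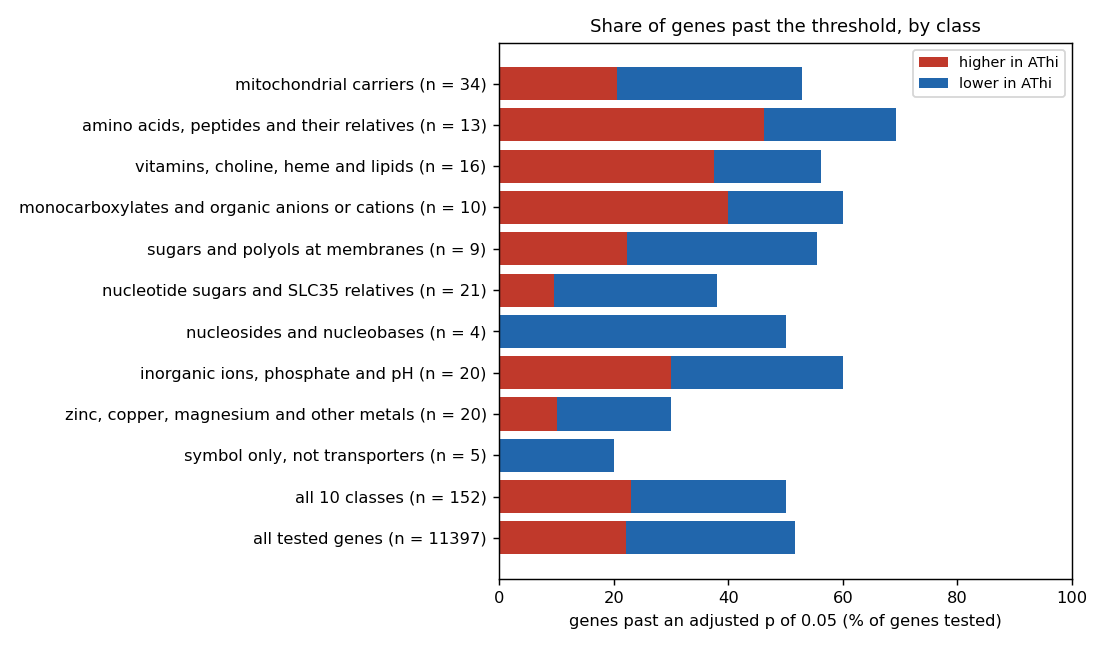
Percent of the genes of each class past an adjusted p of 0.05 (x axis, from 0 to 100), split into genes higher and lower in AThi, with all 152 genes and all 11397 tested genes at the bottom. The 152 genes (50%) lie near the background of 51.6%, metal carriers at 30% and amino acid carriers at 69.2%; no test of a class was made.

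Carriers known from lysosomes were spread over the classes. Of a few chosen after their values were seen, Slc38a7, Slc17a5, Slc17a9 and Slc48a1 rose and Slc2a6 fell. Slc15a4 and the nucleoside carrier Slc29a3, which lay under the limit, did not pass. Neither these nor the genes without an Slc symbol named next are a full list of lysosomal carriers. Over all tested genes 22.2% were higher and 29.4% lower, and no test of lysosomal carriers as a group was made. Lysosomal carriers without an Slc symbol gave Ctns, the cystine exporter, at 8.49 and 8.28 FPKM in AThi against 4.83, 4.24 and 4.37 FPKM in ATlo. Ctns rose by 0.84 ± 0.08 (SE). Spns1, Mfsd8 and Pqlc2 did not pass, at -0.05, 0.10 and 0.03. Over the whole list of carriers without an Slc symbol, 7 of 28 tested genes rose, 7 fell and 14 did not pass, and 3 of the rises and 6 of the falls held with each library left out in turn. The largest changes were in Spns2, an exporter of sphingosine 1-phosphate, at 11.7 and 14.1 FPKM in AThi against 5.45, 5.01 and 4.63 FPKM in ATlo, and in Mfsd2a, a carrier of lysophosphatidylcholine, at 1.35 and 1.45 FPKM in AThi against 4.31, 4.84 and 4.08 FPKM in ATlo. Spns2 rose by 1.27 and Mfsd2a fell by 1.37 on the log2 scale. Slco4a1, of the organic anion family, had 48.1 and 38.6 FPKM in AThi against 125, 95.9 and 89.9 FPKM in ATlo.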

How the data were processed

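RNA of 5 libraries was measured by stranded mRNA sequencing, per the labels. The authors deposited FPKM values in 1 table of 52459 rows, rounded to 2 decimals. STAR, featureCounts, bcl2fastq and DESeq2 are named in the submitters' processing notes, as are mm10 and GRCm38. Not given in these sources are tool versions, annotation, strand setting and FPKM formula. FPKM are not counts, so no count test was run. Steps in the low values of short genes gave relative depths of 27.6 to 44.96 M reads, from which implied reads were computed for orientation.

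log2(FPKM + 0.5) of 11397 genes, those averaging 1 FPKM or more, was fitted with limma 3.58.1 (trended empirical Bayes, R 4.3.3) with group as the only term. The p-values are two-sided and Benjamini-Hochberg adjusted over all tested genes, with a threshold of 0.05. The fit was tested on simulated data. On this scale folds of low genes are understated. A two-sided exact rank-sum test of 2 against 3 libraries cannot go below 0.2.

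Members and lists were chosen with earlier results of these data known. Classes follow SLC families, except for Slc16a10, Slc5a6 and the 5 genes with the symbol only. Described in full were the 3 largest changes past the threshold in each direction and the most abundant gene of each class, and the 3 genes either side of the 2 FPKM limit; others are given by fold change, and a few more with library values as relatives or lysosomal carriers, chosen after their values were seen. Alternatives were other scalings, pseudocounts, filters, robust moderation, a replicate block and each library left out. Exon overlaps and lengths come from GENCODE M21, near copies from alignment of transcripts, and promoters from RefSeq. A few genes that enter the counts are not reported by name here.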

Additional observations from a re-analysis of the deposited data

How the results depend on the processing

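The 152 genes gave 35 higher and 41 lower calls as reported, and 40 and 40 as TPM, 40 and 39 with median-of-ratios scaling, and 28 and 35 with no filter on low values. With each library left out the counts were 27 to 36 higher and 33 to 39 lower. With a minimum mean of 5 FPKM, which removes genes from the test, 23 were higher and 33 lower, all tested genes called higher numbered 1683, and the calls were 10 of mitochondrial carriers, 1 of nucleoside carriers, 2 of the genes with the symbol only and 8 of carriers without an Slc symbol. Inorganic ion carriers had 7 calls with no filter and 7 to 10 with a library left out. Metal carriers had 3 to 5 calls with a library left out, and genes with the symbol only 1 to 3, and 2 under robust moderation. Of the 55 genes described in full, 5 lost their call with no filter on low values. Changes of sign were seen for 3 genes that did not pass: Slc22a18 ranged from -0.029 to 0.12, Slc50a1 from -0.24 to 0.037 and Slc44a1 from -0.030 to 0.069 with a library left out. The cause of these changes was not tested.

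Replicates 1 and 2 carry the same numbers in both groups. In the titles, same-numbered libraries also share the first part of a code, which ATlo replicate 3 does not, and no label says what the code or the numbers mark. Deviations of same-numbered libraries correlated positively, at 0.29 over all tested genes and 0.35 over the 152, from only 2 pairs. The numbers were not taken as a pairing in the main fit because no label states one. Whether same-numbered libraries share an origin was not tested. With a replicate block 37 of the 152 were higher and 44 lower, 3 of the genes with the symbol only were called, Slc22a18 was at -0.029, and all tested genes called higher numbered 2579 and all tested genes called lower 3330. Slc26a2 and Slc31a2 did not pass with the block (adjusted p 0.115 and 0.0744), nor did Cnnm3 and Pqlc1 among the related genes (0.0733 and 0.0757). The count test planned for the case of counts, with edgeR, was not run, since the table holds no counts. The fewest implied reads behind a value were 64, for Slc23a3 at 1.07 FPKM in AThi replicate 1.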

Other observations

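Among the 214 solute carriers with a mean under 2 FPKM, 63 were listed at 0 in every library, 153 had a mean below 0.1 FPKM, and 12 reached the mean of 1 FPKM needed for the test. Of these 12, 5 were higher in AThi, 3 were lower and 4 did not pass, 66.7% called against 51.6% of all tested genes. Slc17a4, a relative of the sodium-phosphate carriers, had 2.87 and 3.88 FPKM in AThi against 0.96, 1.06 and 1.21 FPKM in ATlo, with a log2 fold change of 1.29 ± 0.15 (SE). Slc4a3, the anion exchanger AE3, had 2.02 and 2.86 FPKM in AThi against 0.98, 1.03 and 1.04 FPKM in ATlo, at 0.94 ± 0.15. Slc2a9, a urate transporter, was at 0.74, Slc22a17, a receptor for lipocalin 2, at 0.54, and Slc26a6, an anion exchanger of ducts, at 0.47.

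The falls were Slc4a11, of the bicarbonate carrier family, with 0.28 and 0.35 FPKM in AThi against 1.36, 2.42 and 2.20 FPKM in ATlo, at -1.59 ± 0.21, Slc16a6 at -0.95 and the steroid and bile acid transporter subunit Slc51a at -0.84. The calls of Slc22a17 and Slc51a were lost without AThi replicate 2 (adjusted p 0.0731 and 0.0726), and that of Slc26a6 without AThi replicate 1, ATlo replicate 2 or ATlo replicate 3 (adjusted p 0.0598 to 0.2). At these levels the pseudocount of 0.5 FPKM reduces the fitted change more than for the genes above 2 FPKM.

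Among neighbouring carriers, Slc26a9 and Slc41a1 lie 56.0 kb apart on the plus strand of chromosome 1 of GRCm38 (131744022 to 131771504 and 131827493 to 131848865). In AThi Slc26a9 was lower and Slc41a1 higher, at -0.62 and 0.37 on the log2 scale. Slc52a2 and Slc39a4, 67.8 kb apart on opposite strands of chromosome 15, were both lower, at -0.46 and -0.24. The call of Slc39a4 was lost without AThi replicate 1 or ATlo replicate 2 (adjusted p 0.0931 to 0.1). Slc31a2 and Slc31a1, 62.3 kb apart on chromosome 4, were at 0.31 and -0.03, and the call of Slc31a2 was lost with AThi replicate 1, AThi replicate 2, ATlo replicate 2 or ATlo replicate 3 left out (adjusted p 0.0938 to 0.157). These pairs are examples. In other neighbouring pairs Slc29a1, Slc20a2 and Slc7a6 were lower while Slc35b2, Slc25a15 and Slc7a6os, in that order, did not pass. Neither of the neighbours Slc9a4 and Slc9a2 passed.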
